A study of Mus musculus with 23 samples.

Results

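The L1Md subfamilies are mouse long interspersed element 1 (LINE-1, L1) retrotransposons. They were taken as every row of the deposited repeat table whose family was L1 and whose name began with L1Md_. This gave 6 subfamilies, L1Md_A, L1Md_T, L1Md_Gf, L1Md_F, L1Md_F2 and L1Md_F3, of 133 L1 subfamilies and 1135 rows in all. All 6 passed the filter on low values, a mean of at least 10 normalized reads, in each comparison. Neither the age of an element nor its position in the genome is in the table, so the name "young" rests on the subfamily names.

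L1 elements copy themselves through RNA. A full-length element encodes an RNA-binding protein, ORF1p, and ORF2p, which cuts the target DNA and reverse-transcribes the L1 RNA at the cut. The same proteins can move the short SINE elements B1, B2 and ID. Mouse L1 promoters are arrays of short repeated units called monomers, and the subfamilies are named for their monomer type. L1Md_A, L1Md_T and L1Md_Gf are the subfamilies known to hold copies that can still move, while the F type is older and is regarded as the lineage from which the T and Gf promoters arose. Most L1 copies in the genome are truncated at the 5′ end, and many lie inside genes.

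RNA came from whole spinal cord lysate and was selected for poly(A) before stranded paired-end sequencing. PS19 mice, heterozygous for a human tau transgene that carries a mutation of inherited frontotemporal dementia and is driven by the mouse prion promoter, were compared with wild-type littermates. There were 7 PS19 and 6 control samples at 9 months, and 5 PS19 and 5 control samples at 4 months. The labels give no sex, batch or animal number, so the p-values measure the spread between these samples. The table holds repeats only, and the transgene, tissue markers and markers of other cell types were not analysed here. Values are normalized reads, the number of reads divided by the authors' size factor for the sample. Whether the reads came from L1 promoters or from L1 sequence inside other transcripts was not tested.

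Repeat signal in total differed between sets of samples. It was 370990 to 539759 normalized reads in the 13 samples at 9 months. Replicates 1 to 3 of both genotypes at 4 months had 1494944 to 2459738, and replicates 4 and 5 of both genotypes had 471178 to 779835. These sets follow the order of the sample numbers, and the labels do not say what the numbers stand for. The results below are therefore also given as a share of each sample's repeat total, which removes differences in that total, and within the sets.

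The L1Md subfamilies together were a small part of the repeat signal. The L1Md sum was 1.95% ± 0.17 of it in controls (SD, n = 6) and 2.11% ± 0.27 in PS19 (n = 7) at 9 months. At 4 months it was 3.30% ± 0.23 in controls (n = 5) and 3.33% ± 0.26 in PS19 (n = 5). The ranges of the ages did not overlap, with 1.79% to 2.53% over the 13 older samples and 3.03% to 3.70% over the 10 younger ones. This was not particular to L1Md. In each genotype the ages also did not overlap in the summed shares of other rodent L1, of Lx and of all L1, while those of ancient L1 overlapped. The mean share of other rodent L1 in controls was 3.22% at 4 months and 1.29% at 9 months. Of the signal of all L1 subfamilies, L1Md made up 14.4% to 20.4% at 9 months and 16.1% to 25.5% at 4 months.

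Signal was very unequal among the 6. At 9 months L1Md_A held 50.4% ± 6.71 of the L1Md signal in controls (SD, n = 6), L1Md_F2 27.8% ± 3.33, L1Md_T 13.4% ± 2.41 and L1Md_F3 7.37% ± 0.82. L1Md_F held 0.74% ± 0.26 and L1Md_Gf 0.24% ± 0.08. These are shares of reads and not levels per copy, because lengths and copy numbers were not in the table. Reads behind L1Md_Gf numbered 9 to 30 per control and 25 to 57 per PS19 sample at 9 months, so its values are the least precise of the 6. For L1Md_A the same samples had 3324 to 6620 reads.

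For each of the 6 subfamilies the group means had the same order. Controls at 4 months were highest, then PS19 at 4 months, PS19 at 9 months and controls at 9 months. Within an age the genotypes overlapped for all 6. Between the ages of a genotype, L1Md_A of PS19 was the one case of overlap, as the plot of each subfamily by sample shows. Of all 920 subfamilies tested, 48.4% in controls and 43.3% in PS19 had every 9-month value below every 4-month value.

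**Figure D1:**
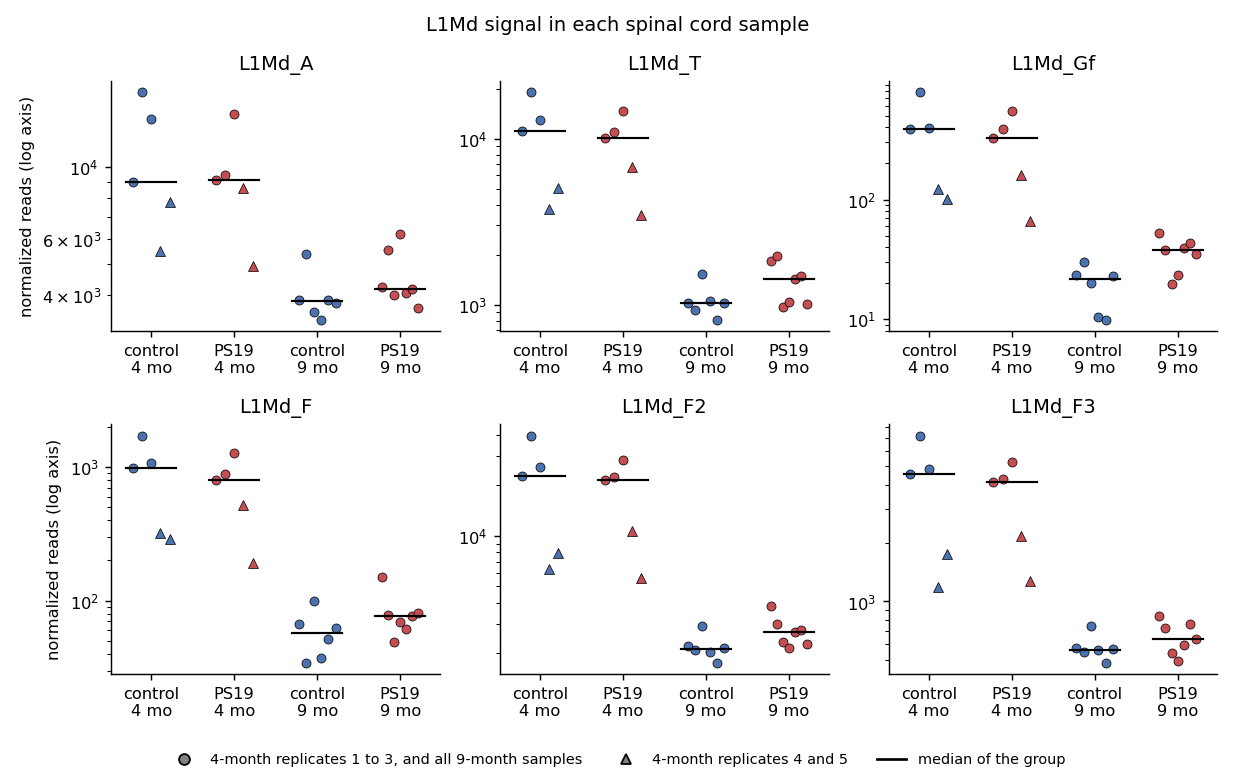
Normalized reads of each L1Md subfamily (log axes) in every sample, by genotype and age; points are samples and bars are group medians. Triangles mark replicates 4 and 5 at 4 months, which lie below replicates 1 to 3 of their own group, and the genotypes overlap at each age.

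The first question was whether PS19 and control cord differ at 9 months. L1Md_Gf had the largest difference of the 6, a mean of 35.8 ± 11.2 normalized reads in PS19 (SD, n = 7) against 19.5 ± 7.95 in controls (n = 6). The other 5 differed less, with PS19 means 1.14 to 1.38 times those of controls. None of the 6 passed the threshold, an adjusted p under 0.05 over the 767 subfamilies tested with limma. Of those 767, 4.56% passed, 4.17% higher and 0.391% lower in PS19. Unadjusted, 3 of the 6 had p under 0.05, as did 152 of all 767 (2 of the 6 as shares of the repeat total), and none of the 6 passed with edgeR or DESeq2 on the recovered reads. Whole cord was measured, so a difference in the number of cells of a type and one in RNA per cell cannot be told apart.

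L1Md_Gf, an active subfamily whose promoter is of the Gf monomer type, ranged from 9.88 to 30.1 normalized reads in controls with a median of 21.6, and from 19.6 to 52.1 in PS19 with a median of 37.6. The value was above every control in 5 of 7 PS19 samples and above the control median in 6 of 7, and the groups overlapped. Of all 767 tested, 1.17% had every PS19 value above every control, and 0 of the 6 members did. PS19 replicates 3 and 4, at 19.6 and 23.4, lay within the control range. Limma estimated a log2 fold change of 0.88 (SE 0.29, 95% interval 0.28 to 1.49), at an unadjusted p of 0.00582 and an adjusted p of 0.0881. Of the 110 L1 subfamilies tested, 0 had a higher log2 fold change, and of all 767 tested 97.1% had a lower one. As a share of the repeat total the log2 fold change of L1Md_Gf was 0.76, with a limma adjusted p of 0.112. Over all alternatives the limma, edgeR or DESeq2 adjusted p ran from 0.0515 to 0.9997.

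L1Md_T, the subfamily of the T monomer with many full-length copies, had 810 to 1523 normalized reads in controls with a median of 1022, and 965 to 1953 in PS19 with a median of 1418. PS19 replicates 1 and 2 lay above all controls and the other 5 within their range. The log2 fold change of L1Md_T was 0.36 (SE 0.16; limma adjusted p = 0.204). L1Md_F2, the most abundant of the F subfamilies by reads, had 1750 to 2904 in controls with a median of 2112. In PS19 it had 2157 to 3815 with a median of 2694. All 7 PS19 values exceeded the control median and 2 exceeded the highest control. This gave a log2 fold change of 0.31 (SE 0.12; limma adjusted p = 0.161).

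The highest control of both L1Md_T and L1Md_F2 was control replicate 3. Without that sample L1Md_F2 had a log2 fold change of 0.39 (limma adjusted p = 0.0316) and L1Md_T one of 0.47 (limma adjusted p = 0.0449). Both were then past the threshold, as were 87 of 762 subfamilies tested, where 35 of 767 had been with it. The calls for these members therefore turned on that 1 library.

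L1Md_A, the active subfamily named for the A monomer, had 3345 to 5350 normalized reads in controls with a median of 3818, and 3645 to 6190 in PS19 with a median of 4174. The highest PS19 samples were replicates 2 and 4, at 5535 and 6190, and the other 5 lay within the control range. For L1Md_A limma estimated a log2 fold change of 0.19 (95% interval -0.05 to 0.44, adjusted p = 0.348). As a share of the repeat total it was 1.03% ± 0.27 in PS19 (SD, n = 7) and 0.99% ± 0.21 in controls (n = 6).

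L1Md_F had 34.1 to 99.7 normalized reads in controls and 48.7 to 151 in PS19, where replicate 1 was the highest. The estimate was 0.47 on the log2 scale (SE 0.25; limma adjusted p = 0.277). L1Md_F3 had 481 to 749 in controls and 494 to 846 in PS19. Here the log2 estimate was 0.18 (SE 0.13; limma adjusted p = 0.416).

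**Figure D2:**
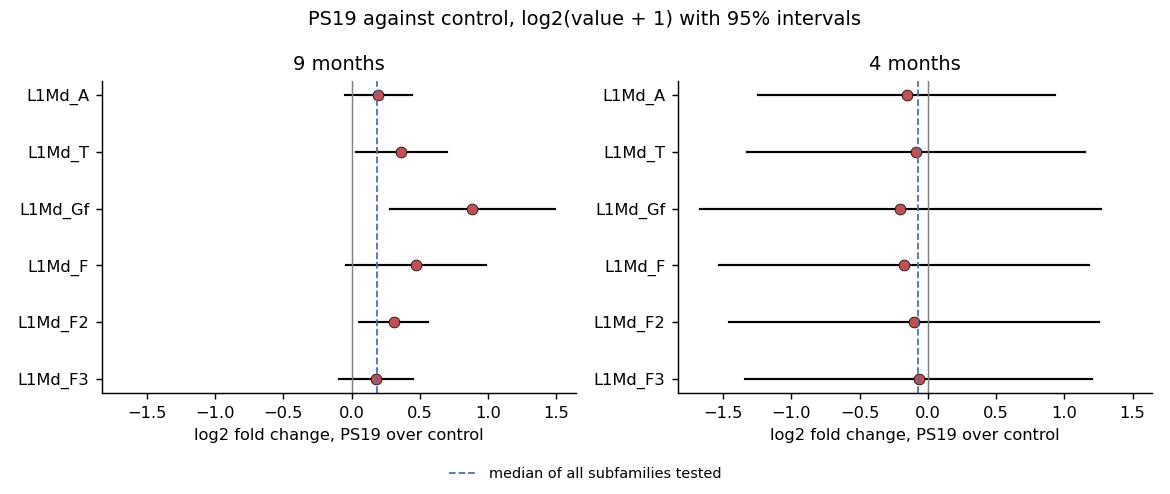
Log2 fold change of PS19 over control for each L1Md subfamily at 9 months (7 against 6 samples) and 4 months (5 against 5), from limma on log2(value + 1). Bars are 95% intervals, and the dashed line is the median of all subfamilies tested, 0.18 at 9 months and -0.08 at 4 months. The 9-month estimates lie between 0.18 and 0.88, and with TMM scaling within repeats that of L1Md_F3 was -0.0033.

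All 6 log2 fold changes at 9 months were above 0 with a median of 0.34, as were 592 of all 767 tested, whose median was 0.18. Scaled within the repeats by the trimmed mean of M-values (TMM), the median of all tested was 0.0029 and that of the 6 was 0.15, with L1Md_F3 at -0.0033. As shares of the repeat total these medians were 0.04 and 0.19. At 9 months PS19 replicates 1 to 5 have sample numbers below those of all controls, so genotype and sample number largely go together. The 2 cannot be told apart for those samples. PS19 replicates 6 and 7 are the PS19 samples whose numbers lie nearest to those of the controls. Against all controls they gave 1.07 for L1Md_Gf and -0.0033 for L1Md_A, neither past the threshold.

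Related elements had differences of like size at 9 months. Of 12 other rodent L1 subfamilies (the L1_Mus, L1_Mur, L1_Mm, L1VL and L1_Rod rows), all log2 fold changes were above 0 and none passed limma's threshold, with a median of 0.36. Unadjusted, 8 of these 12 had p under 0.05. The singly named ones were L1_Mus1 at 0.27, L1_Mus2 at 0.23, L1_Mus3 at 0.32 and L1_Mus4 at 0.36. L1_Mur1 was at 0.20, L1_Mur2 at 0.30, L1_Mur3 at 0.46 and L1_Mm at 0.36. The rodent Lx subfamilies had 1 of 21 called, higher, and a median of 0.29, and the ancient L1 subfamilies had 1 of 70 called, higher, and a median of 0.16. Among SINEs that L1 proteins can move, 0 of 16 B1, 0 of 5 B2 and 0 of 4 ID subfamilies passed, with medians of 0.13, 0.20 and 0.11. IAP, an endogenous retrovirus that moves without L1, had 2 of 18 subfamilies called, higher, and a median of 0.39.

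At 4 months no member differed between the genotypes beyond the spread. With limma 0 of the 6 and 0% of the 987 subfamilies tested passed, and 0 of the 987 had an unadjusted p under 0.05. With edgeR and with DESeq2 the counts were also 0. L1Md_A had 8999, 17141, 14111, 5480 and 7808 normalized reads in control replicates 1 to 5, and 9143, 9503, 14727, 8607 and 4919 in PS19 replicates 1 to 5. L1Md_F2 had 22673, 39461, 25686, 6321 and 7924 in controls, and 21439.9, 22443, 28269, 10655 and 5604 in PS19. In both genotypes replicates 4 and 5 were the lowest, and the groups overlapped.

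Log2 fold changes at 4 months were -0.16 for L1Md_A, -0.09 for L1Md_T, -0.20 for L1Md_Gf, -0.17 for L1Md_F, -0.10 for L1Md_F2 and -0.07 for L1Md_F3. Each had a limma adjusted p of 0.9999. As shares of the repeat total L1Md_T, L1Md_F2 and L1Md_F3 turned to 0.04, 0.02 and 0.06, and with TMM L1Md_T and L1Md_F3 turned to 0.01 and 0.03. The intervals were wide, from -1.46 to 1.25 for L1Md_F2 and from -1.67 to 1.27 for L1Md_Gf. A difference as large as that of L1Md_Gf at 9 months lies inside its interval at 4 months. With replicates 1 to 3 of both genotypes alone, the 6 lay between -0.32 and -0.25, and with replicates 4 and 5 alone between -0.12 and 0.21, none past the threshold.

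Whether the genotype difference itself differed between the ages was tested as an interaction. Of 920 subfamilies 0% passed with limma, 8 had an unadjusted p under 0.05, and edgeR called 0 and DESeq2 1. None of the 6 was called by these tools or had an unadjusted limma p under 0.05 in the authors' scaling. As shares and with TMM L1Md_Gf alone of the 6 did, beside 47 and 56 of the 920, and 0 were called. L1Md_Gf had the largest estimate of the 6, a 9-month log2 fold change 1.09 above that at 4 months (SE 0.71, limma adjusted p = 0.997). The other 5 lay between 0.25 and 0.64, and L1Md_F3 turned to -0.02 as a share and -0.03 with TMM. When the fit held a term for the 4-month sets, limma gave L1Md_Gf an adjusted p of 0.414.

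The largest differences among the L1Md values were between the ages. In the authors' scaling all 6 subfamilies were lower at 9 than at 4 months in both genotypes, by limma, but L1Md_A reversed under the other scalings given below. So were 79.3% of the 920 tested in controls and 77% in PS19, while 6.09% were higher in each. In either direction 85.4% passed in controls and 83% in PS19. The median log2 fold change of all tested was -2.14 in controls and -1.83 in PS19. A lower value at 9 months was thus common to most of the table. All 9-month samples were compared with 4-month samples of which most had a far larger repeat total, and age and how the samples were prepared cannot be told apart.

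L1Md_Gf and L1Md_F had the largest drops. L1Md_Gf went from 358 ± 276 normalized reads (SD, n = 5) to 19.5 ± 7.95 (n = 6) in controls, a log2 fold change of -3.84 (SE 0.51, limma adjusted p = 6.9e-07). In PS19 it went from 298 ± 189.6 (SD, n = 5) to 35.8 ± 11.2 (n = 7), a log2 fold change of -2.76 (SE 0.50). L1Md_F had -3.65 in controls and -3.00 in PS19. Of all 920, 2.17% had a lower log2 fold change than L1Md_Gf in controls and 13.7% in PS19.

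The subfamilies L1Md_T, L1Md_F2 and L1Md_F3 had log2 fold changes of -3.07, -2.91 and -2.48 in controls and -2.62, -2.51 and -2.23 in PS19. Their limma adjusted p lay between 3.4e-07 and 2.0e-05. In both genotypes every 9-month value of these 3, and of L1Md_Gf and L1Md_F, was below every 4-month value. Among all tested, 48.4% separated in that way in controls and 43.3% in PS19.

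L1Md_A had the smallest difference. In controls it went from 10708 ± 4786 normalized reads (SD, n = 5) to 3956 ± 711 (n = 6), a log2 fold change of -1.33 (SE 0.32, limma adjusted p = 0.000352). In PS19 it went from 9379.9 ± 3506 (SD, n = 5) to 4548 ± 937 (n = 7), a log2 fold change of -0.98 (SE 0.31, limma adjusted p = 0.00453). In controls all 9-month values lay below all 4-month values. In PS19 they overlapped, as 9-month replicates 2 and 4, at 5535 and 6190, exceeded 4-month replicate 5 at 4919. Of all subfamilies tested, 71.4% in controls and 74.1% in PS19 had a lower log2 fold change than L1Md_A.

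As a share of the repeat total L1Md_A parted from the other 5. Its share was 0.56% to 1.21% in controls at 4 months and 0.77% to 1.36% at 9 months, and the ages overlapped. The log2 difference in share was 0.24 in controls (limma adjusted p = 0.269) and 0.32 in PS19 (limma adjusted p = 0.131), neither past the threshold. The other 5 still fell, by limma, by 0.91 to 2.31 on the log2 scale in controls and by 0.93 to 1.71 in PS19. In this scaling 51.3% of all 920 were called lower and 24.7% higher in controls, and 50.2% and 22.9% in PS19. For the 5 members other than L1Md_A the ages did not overlap in either genotype, where 27.5% and 32% of all tested did the same. L1Md_F2, for example, went from 1.37% ± 0.15 (SD, n = 5) to 0.54% ± 0.05 (n = 6) of the repeat signal in controls. Against 4-month replicates 4 and 5 alone, with the genotypes together, the log2 difference in share of L1Md_A was -0.16. In that share 10 of the 13 9-month samples lay below all 4 of those samples and 2 above them all. With all samples the medians of all tested in this scaling were -0.60 and -0.56.

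TMM scaling within the repeats brought those medians to -0.09 in controls and -0.05 in PS19. L1Md_A was then called higher at 9 months, at 0.75 (limma adjusted p = 0.0127) and 0.82 (limma adjusted p = 0.00585). The other 5 were called lower, from -1.80 to -0.39 in controls and from -1.20 to -0.43 in PS19. Of all 920, TMM gave 29.7% lower and 32.7% higher in controls, and 27.9% lower and 32.3% higher in PS19. Against 4-month replicates 4 and 5 alone, whose totals were nearest to those at 9 months, all 6 stayed past the threshold and lower in the authors' scaling. L1Md_A was then at -0.74 in controls and -0.54 in PS19, and the other 5 between -2.56 and -1.34. Most of the table was lower in this comparison too. With the genotypes together, the median log2 difference of all 920 was -0.99, and 226 of them were above 0. On that measure L1Md_A, at -0.63, fell less than the median.

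**Figure D3:**
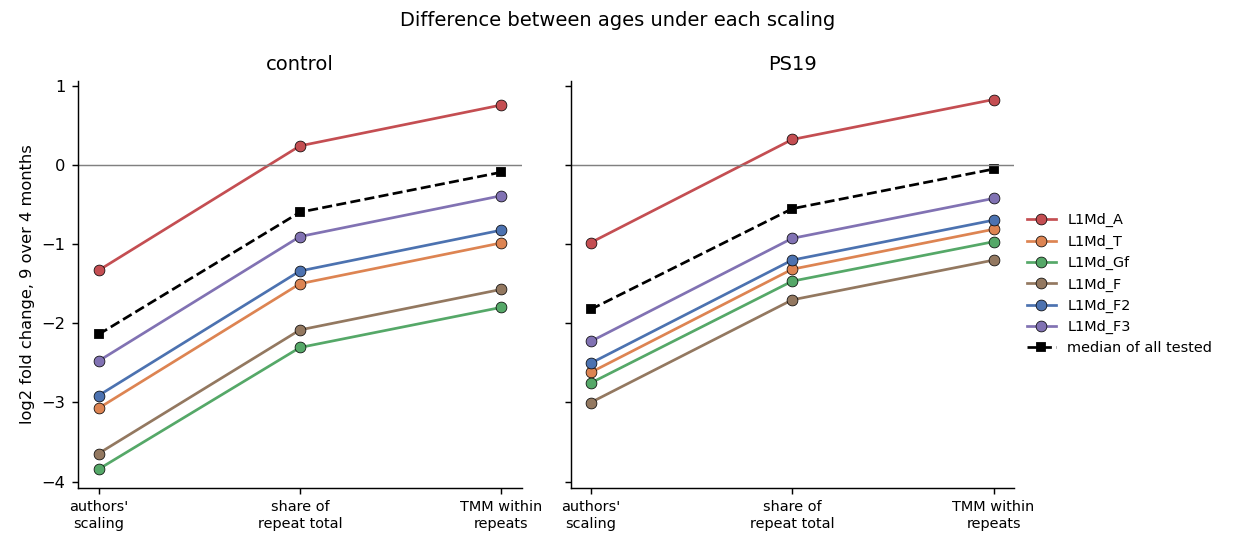
Log2 fold change of 9 over 4 months for each L1Md subfamily and for the median of all 920 tested (dashed), in controls and PS19, under 3 scalings of the same reads. L1Md_A lies above the median and the other 5 below it in every scaling, and L1Md_A changes sign between the authors' scaling (-1.33 and -0.98) and the other scalings (0.24 to 0.82).

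The make-up of the L1Md signal differed between the ages, and this does not depend on how samples are scaled. L1Md_A held 18.5%, 20.1%, 23.9%, 31.9% and 34.1% of the L1Md signal in control replicates 1 to 5 at 4 months. In PS19 replicates 1 to 5 it held 19.9%, 19.6%, 22.8%, 29.8% and 31.7%. At 9 months it held 40.1% to 59.6% in controls with a median of 49.8%, and 38.8% to 62.1% in PS19 with a median of 47.4%. No 4-month sample reached the lowest 9-month sample, in either genotype.

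**Figure D4:**
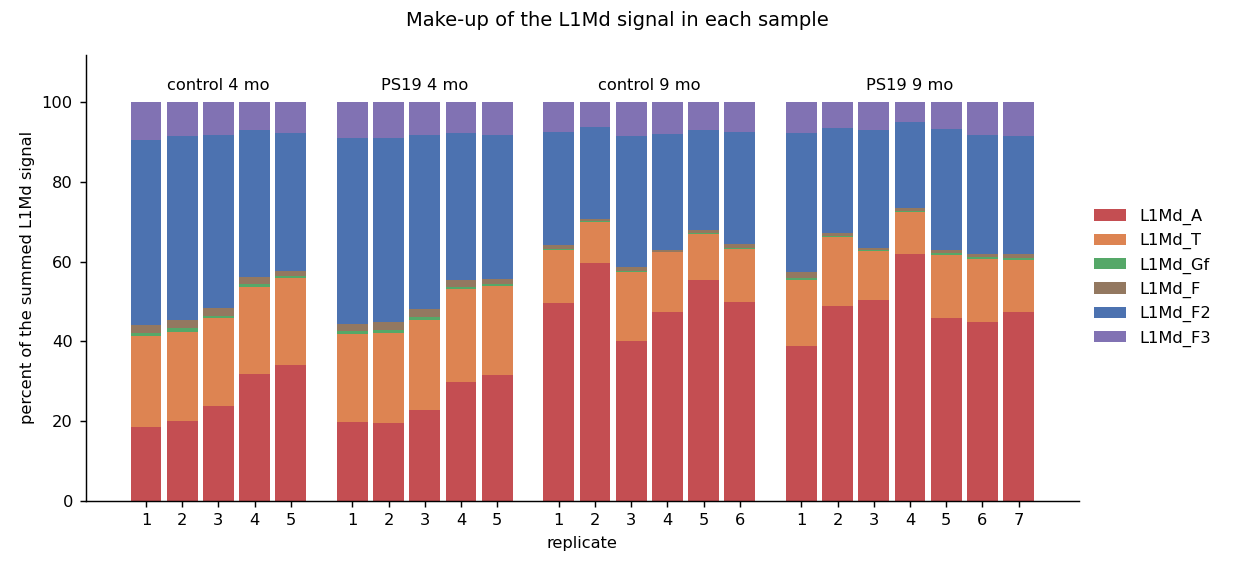
Percent of the summed L1Md signal that came from each of the 6 subfamilies, 1 bar per sample, by genotype and age. The L1Md_A part is 18.5% to 34.1% at 4 months and 38.8% to 62.1% at 9 months, and the genotypes overlap at each age.

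The genotypes overlapped in the part of each subfamily at each age. The L1Md_A part was 48.3% ± 7.12 in PS19 (SD, n = 7) and 50.4% ± 6.71 in controls (n = 6) at 9 months, and 24.7% ± 5.64 and 25.7% ± 6.97 (n = 5 each) at 4 months. Both differences were smaller than the spread between samples. The L1Md_Gf part differed more at 9 months, at 0.379% ± 0.11 in PS19 and 0.243% ± 0.08 in controls, with 4 of 7 PS19 samples above every control. At 4 months it was 0.667% ± 0.18 in PS19 and 0.708% ± 0.18 in controls. L1Md_T held 21.8% to 23.4% at 4 months and 10.3% to 17.2% at 9 months.

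The ratio of L1Md_A to L1Md_F2 reads summarised the same pattern. It was 0.397 to 0.549 in replicates 1 to 3 at 4 months, 0.808 to 0.985 in replicates 4 and 5, and 1.11 to 2.87 at 9 months. The ranges did not overlap, and the sets within 4 months differed in the ratio as well as in their repeat total. The ratio of L1Md_T to L1Md_F2 had no such separation of the ages, at 0.470 to 0.635 over 4-month samples and 0.413 to 0.652 over 9-month samples, although within 4 months it was 0.470 to 0.516 in replicates 1 to 3 and 0.594 to 0.635 in replicates 4 and 5.

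**Figure D5:**
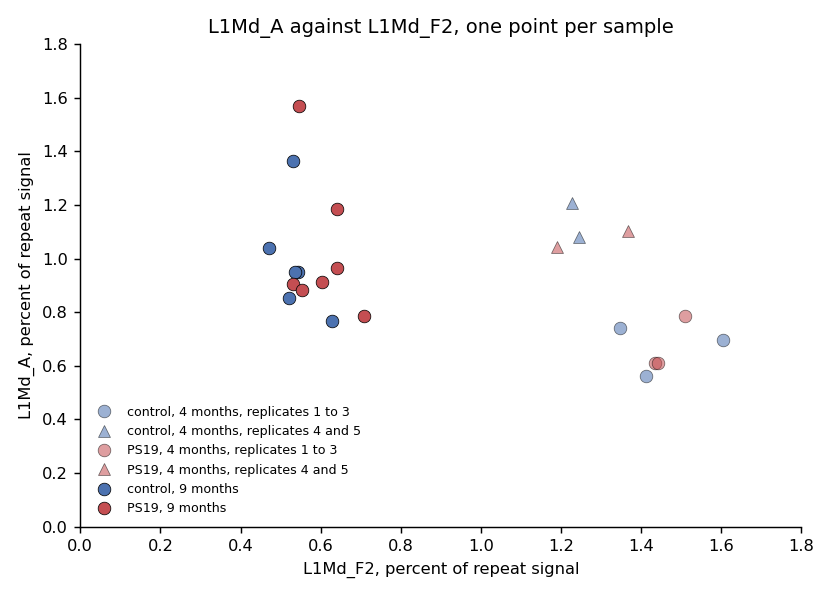
L1Md_A against L1Md_F2, each as percent of the sample's repeat signal; points are samples, pale for 4 months (triangles for replicates 4 and 5) and dark for 9 months. L1Md_F2 separates the ages (1.19% to 1.60% at 4 months, 0.47% to 0.71% at 9 months), while L1Md_A overlaps.

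Within the 4-month samples, replicates 1 to 3 exceeded replicates 4 and 5 by less for L1Md_A than for the other members. On the log2 scale of normalized reads the difference was 0.86 for L1Md_A, 1.48 for L1Md_T, 1.67 for L1Md_F3, 1.81 for L1Md_F, 1.82 for L1Md_F2 and 2.06 for L1Md_Gf. The median of all 920 was 1.93. Relative to repeat reads L1Md_A was lower in replicates 1 to 3 by a log2 difference of -0.74, and L1Md_Gf was higher by 0.47. These sets were formed after the totals had been seen, so no test is given.

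Most related L1 elements were also lower at 9 months in the authors' scaling. The 12 other rodent L1 subfamilies had log2 fold changes of -3.42 to -2.53 in controls and -3.01 to -2.12 in PS19. All 12 were lower by limma in both genotypes under the authors' scaling, as shares and with TMM. Of the 21 Lx subfamilies all were lower in the authors' scaling and as shares, and 18 with TMM, in each genotype. Of the 85 ancient L1 subfamilies tested, 71 were lower and 2 higher in each genotype in the authors' scaling. As shares 43 were lower and 20 higher in controls and 47 lower and 15 higher in PS19, while with TMM 24 were lower and 29 higher in controls and 28 lower and 26 higher in PS19.

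The SINEs that L1 proteins can move depended more on the scaling. B1 had 14 of 16 subfamilies lower in controls and 13 in PS19 in the authors' scaling, but 11 of 16 higher and none lower as shares in each genotype, and all 16 higher with TMM. All 5 B2 subfamilies were lower in the authors' scaling and as shares in both genotypes, but with TMM 2 were higher and 1 lower in controls and 1 was higher and 1 lower in PS19. ID had 2 of 4 lower in each genotype in the authors' scaling, but 4 of 4 higher in controls and 3 of 4 in PS19 as shares, and all 4 higher with TMM. IAP had 20 of 21 lower in controls and 18 of 21 in PS19 in the authors' scaling. As shares 12 of 21 IAP subfamilies were lower and 1 higher in each genotype, and with TMM 4 were lower in each, with 1 higher in controls and 3 in PS19.

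From sample to sample at 9 months the members other than L1Md_A varied together to unequal degrees. Over the 13 samples, Pearson's r of the log2 shares among these 5 ran from 0.42, between L1Md_Gf and L1Md_F, to 0.87, between L1Md_T and L1Md_F2. Those of L1Md_F2 with L1Md_Gf and L1Md_F were 0.68 and 0.65, and that of L1Md_T with L1Md_F was 0.49. L1Md_A had r between -0.48 and 0.11 with the other 5. The 10 samples at 4 months gave another picture. There the log2 share of L1Md_A had r of 0.67 with L1Md_T and -0.71 with L1Md_F2, and L1Md_T had -0.02 with L1Md_F2. In log2 normalized reads at 4 months L1Md_A had r of 0.90 to 0.95 with the other 5. Members share libraries and sequence, and shares of a total are bound to each other, so these values are descriptions.

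Beyond the members, the rows most like their mean at 9 months were the DNA transposon MamRep434 (r = 0.885), the L1 subfamilies Lx5 (0.877), L1_Mus1 (0.860) and Lx3_Mus (0.843), and the retrovirus-like MMETn-int (0.842). These were the highest of 642 rows, by Pearson's r of log2 shares over 13 samples. At 4 months, over 10 samples, L1_Mm was most like it (r = 0.853), followed by RLTR13C2 (0.766), RLTR25A (0.678), L1MC1 (0.642) and MLT1H1 (0.632). L1Md_A alone, looked at after these values were seen, was most like the SINE ID_B1 (0.909) at 9 months and MERVL-int, an endogenous retrovirus, at 4 months (0.977). L1Md_T and L1Md_F2 were each most like Lx5 at 9 months (0.953 and 0.939). At 4 months every L1Md_A share in replicates 1 to 3 lay below every one in replicates 4 and 5 (means 0.67% and 1.11%). Whether the 4-month values of r follow from that division alone was not tested.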

How the data were processed

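Per sample and repeat subfamily, the authors deposited a signal: a read number divided by the sample's size factor. The mouse build mm10 and the tools Trimmomatic, STAR and DESeq2 are listed in the submitters' processing notes, with no versions. The counting program is not given in the sources used here, nor are the repeat annotation and the rule for reads that match several copies, and near-identical L1Md subfamilies may share reads. Within 0.01 read, 100% of values were whole multiples of the value of 1 read, from which the reads were recovered (338090 to 2168280 per sample over all repeats). All 23 columns matched a sample title. No pair of samples in a group agreed within counting noise (lowest chi-square over degrees of freedom 3.73).

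Rows with a mean of at least 10 were tested on log2(value + 1) in limma 3.58.1 under R 4.3.3, using moderated variances with a trend on the mean. This scale understates fold changes of low rows such as L1Md_Gf. Benjamini-Hochberg adjustment ran over all rows tested, and an adjusted p under 0.05 was called. Genotypes were compared on the samples of 1 age alone, and ages and the interaction on all 23 samples. The latter fits used 1 estimate of the spread for both ages, although the spread was larger at 4 months. For the genotype difference of L1Md_Gf the SE was 0.70 at 4 months and 0.29 at 9 months. Samples of both 4-month sets entered the main fits as replicates of their group. The p-values for ages and the interaction are therefore approximate. Alternatives were other pseudocounts, filters and scalings, count models on the recovered reads (edgeR 4.0.16, DESeq2 1.42.0), terms for or subsets of the 4-month samples, and leaving out each sample. The genotype fits of limma and edgeR were also run on simulated reads, with means and spread taken from the 9-month samples for both ages. The larger spread at 4 months was not simulated, nor were the age, interaction and DESeq2 fits. Sums, shares and ratios have no test. All 6 members are named in each comparison, and likeness to their mean was computed over rows with a mean of at least 50. The members, lists and tests were chosen with earlier results of these data known. Replicates are numbered in accession order.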

Additional observations from a re-analysis of the deposited data

Results flagged for a closer look

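Of 96 groups of 5 to 7 values examined, 9 held a sample far from the others by Dixon's criterion. Chance alone marks about 5% of independent groups. These groups were overlapping reads, shares, sums and ratios of the same samples, so that rate does not apply to them. Control replicate 2 at 9 months had 5350 normalized reads of L1Md_A, against 3345 to 3855 in the other 5 controls. The same sample was highest for the L1Md sum as a part of the repeat signal, at 2.29% against 1.795% to 1.912%, and as a part of the L1 signal, at 18.4% against 14.4% to 15.8%. Control replicate 3 at 9 months was highest for L1Md_T, at 1523 against 810 to 1045, and for L1Md_F3, at 749 against 481 to 572. For the L1Md sum without L1Md_A it had 5296 normalized reads against 3102 to 3892. This is the sample whose removal took L1Md_F2 and L1Md_T past the threshold at 9 months.

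PS19 replicate 1 at 9 months had 150.9 normalized reads of L1Md_F, against 48.7 to 81.1 in the other 6. PS19 replicate 4 at 9 months had a ratio of L1Md_A to L1Md_F2 of 2.87, against 1.11 to 1.85. Control replicate 5 at 4 months had the lowest L1Md_F part of the L1Md signal, at 1.27% against 1.81% to 2.01%. What sets these samples apart was not tested.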

How the results depend on the processing

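Called subfamilies numbered 35 (32 higher, 3 lower) at 9 months. They were 15 with TMM (8 higher, 7 lower), 1 with all 23 samples, 6 with PS19 replicates 6 and 7 only and 7 at a threshold of 0.01, and as shares of the repeat total 17 were higher and 15 lower. Leaving out 1 sample gave 13 to 87, the highest without control replicate 3. At 4 months replicates 1 to 3 alone gave 1 call, and leaving out 1 sample gave 0 to 0. The interaction had 1 call with DESeq2 and 2 with a term for the sets, and 0 to 0 on leaving out 1 sample. The age counts, 786 in controls (56 higher, 730 lower) and 764 in PS19 (56 higher, 708 lower), were 738 to 822 and 700 to 792 on leaving out 1 sample. Their split was 301 higher and 273 lower with TMM and 227 and 472 as shares in controls, and 297 and 257 and 211 and 462 in PS19.

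Of 713 values of the members under alternatives, 673 kept direction and side of the threshold and 38 reversed, and the causes were not tested. At 9 months L1Md_F3 was -0.0033 with TMM, and L1Md_A was -0.0033 with PS19 replicates 6 and 7 only. At 4 months TMM gave L1Md_T 0.011 and L1Md_F3 0.031. Shares gave L1Md_F2 0.024, L1Md_T 0.036 and L1Md_F3 0.056, and replicates 4 and 5 alone gave L1Md_F 0.051, L1Md_F2 0.127, L1Md_T 0.157 and L1Md_F3 0.206. Leaving out 1 sample at 4 months gave -0.37 to 0.055 for L1Md_A, -0.39 to 0.22 for L1Md_T, -0.56 to 0.25 for L1Md_Gf, -0.49 to 0.25 for L1Md_F, -0.44 to 0.26 for L1Md_F2 and -0.42 to 0.24 for L1Md_F3. The interaction of L1Md_F3 was -0.034 with TMM, -0.023 as a share and -0.065 to 0.60 on leaving out 1 sample. L1Md_A between the ages was 0.75 with TMM and 0.24 as a share in controls, and 0.82 and 0.32 in PS19. The summed L1Md signal of PS19 minus control had a log2 difference of 0.26 at 9 months (0.21 to 0.30 on leaving out 1 sample, 0.11 as a share) and -0.12 at 4 months (-0.42 to 0.19, and 0.0092 as a share). With 9 to 57 reads per sample at 9 months, L1Md_Gf is limited by depth. No paired analysis was possible because the labels give no batch or animal number by which samples could be paired.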
